A study of Mus musculus with 4 samples.

Results

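The integrin and laminin genes were compared between mouse ID8 ovarian cancer cells that carried a control shRNA and ID8 cells that carried an shRNA against USP9X. They were taken as every gene of the deposited expression table whose symbol is Itga, Itgb, Lama, Lamb or Lamc followed by a subunit number, together with Itgad, Itgae, Itgal, Itgav and Itgax. Itgam was left out by this rule. It found 36 of 22063 genes, of which 25 encode integrin subunits and 11 encode laminin chains.

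Integrins are receptors made of an α and a β subunit that span the plasma membrane and tie the cytoskeleton to the extracellular matrix or to ligands on other cells. The α subunit largely sets the ligand, so that the subunits encoded by Itga3, Itga6 and Itga7 bind laminins, those encoded by Itgav and Itga5 bind ligands with an RGD motif such as fibronectin, and those encoded by Itga1, Itga2, Itga10 and Itga11 bind collagens. Laminins are secreted trimers of an α, a β and a γ chain and form the sheet on which basement membranes are built. Ovarian cancer cells spread within the peritoneal cavity and attach to its matrix through integrins.

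ID8 is a line derived from mouse ovarian surface epithelium, and USP9X is a deubiquitinase, an enzyme that takes ubiquitin off other proteins. Poly(A) RNA was sequenced from cells with the control shRNA (shCtrl, labelled WT) and from cells with the USP9X knockdown (shUSP9X), with 2 libraries in each group, and the study delivered its shRNAs in a lentiviral vector with a puromycin resistance marker. Library depth, as the total of estimated counts, was 17232006 and 15611363 for shCtrl and 19978889 and 17021261 for shUSP9X. Whether TGF-β was added, the oxygen level, whether the shUSP9X libraries share an shRNA and whether the 2 libraries of a group came from separate cultures are not stated, so p-values measure the spread between these libraries, which may be technical.

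The targeted gene checked the labels. Usp9x (ENSMUSG00000031010, GRCm38 chromosome X, 13071498 to 13173328) had 5169 and 4453 counts in shCtrl, against 390 and 346 in shUSP9X, a log2 fold change of -3.85 (SE 0.06, adjusted p = 4.65e-26, edgeR). With each library's trend on GC content and transcript length removed, it was -2.31. Markers of ovarian surface epithelium and mesothelium were present, with 9 of 10 above 3 counts in some library. Their summed expression, as CPM (counts scaled to a common library size after TMM scaling), was 2563 and 2595 in shCtrl and 3017 and 2967 in shUSP9X. Of the 8 markers tested, 3 were lower and 4 higher by adjusted p, beside 33.6% and 33.7% of all genes tested. The lower ones were Wt1 and Msln, at -0.52 and -0.47, and Lrrn4 at -1.64 on the log2 scale. Lrrn4 passed the filter on low counts through the shCtrl libraries alone. The tested marker that did not pass was Upk3b (log2 fold change 0.05, adjusted p = 0.342, edgeR), which was at -0.18 with the GC and length trend removed. Of the higher ones, Krt8, Upk1b and Krt18 were at 0.92, 0.68 and 0.64. With the GC and length trend removed, these 3 were at 0.59, 0.57 and 0.25, and Wt1, Msln and Lrrn4 at -0.76, -0.78 and -1.78. Krt19, an epithelial keratin, was the most abundant, with 12190 and 11246 counts in shCtrl, against 15535 and 12647 in shUSP9X (log2 fold change 0.12, and -0.24 with the GC and length trend removed), whereas Krt7 had 0, 0, 2 and 3 counts and Epcam 4, 6, 1 and 6, in the order shCtrl 1, shCtrl 2, shUSP9X 1, shUSP9X 2.

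The second shUSP9X library stood apart in 1 respect. It held 635 counts of Alb, the serum albumin of hepatocytes, which had 0 in the other libraries, and 34 of Fgb, 32 of Fga and 22 of Fgg, the fibrinogen chains. In all, 27 genes had at least 10 counts there and 0 elsewhere, with 1381.2 counts summed, against 3 genes in shCtrl 1, 5 in shCtrl 2 and 0 in shUSP9X 1. These genes were singled out after their values were seen. Calls of integrins and laminins that were lost without that library are named below.

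Of the 36 genes, 22 passed the filter on low counts and were tested, 14 integrins and 8 laminins. At an adjusted p under 0.05, 11 of the 22 were lower and 4 higher in shUSP9X, and 7 did not pass. Across all 11448 genes tested, 3843 (33.6%) were lower and 3863 (33.7%) higher by the same rule. At the study's cutoff, which asks for a fold change above 1.5 and an unadjusted p under 0.05, 3 of the 22 were lower and 3 higher, against 18.7% and 10.8% of all genes tested. The groups did not overlap for 20 of the 22, where the background was 82.3% of all genes. Their median log2 fold change was -0.22, beside a median of all genes of -0.00. The genes past the study's cutoff were Itgb8, Itga7 and Lama4 on the lower side and, among those on the higher side, Itgb2 and Itgb7. Without the second shUSP9X library 9 were lower and 4 higher by the adjusted p, with Itga6 (adjusted p = 0.351) and Itgb5 (adjusted p = 0.0887) no longer past the threshold in edgeR; over all alternatives their adjusted p ranged from 0.00153 to 0.351 and from 2.08e-20 to 0.0887.

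**Figure D1:**
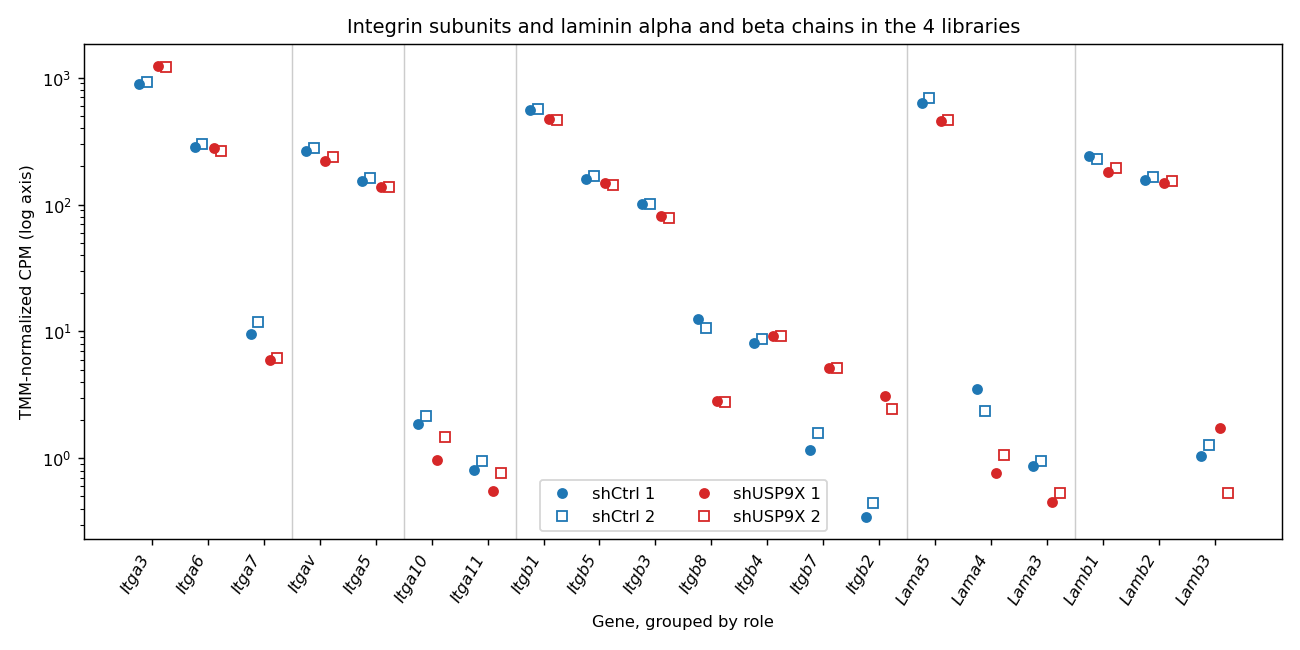
TMM-normalized CPM (log axis) of 20 of the 22 genes tested (integrin subunits and laminin α and β chains) in each of the 4 libraries, ordered by role, with blue symbols for shCtrl and red for shUSP9X. Itga3, Itgb7 and Itgb2 lie higher and Itgb8, Itga7 and Lama4 lower in both shUSP9X libraries, while most abundant genes differ little.

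Stretches before the annotated start are shown for a gene that rose from a high level (Itga3), a gene that rose from a low level (Itgb7) and the laminin chain with the most counts in shCtrl (Lama5), which fell. They come from RefSeq's promoter windows of 300 bases (GRCm38.p6, 250 before the start and 50 after it) and are cut where a GENCODE M21 transcript of the gene begins. All lie on the minus strand, at chr11:95076802-95076964, chr15:102231945-102232185 and chr2:180225860-180226109, and are written 5′ to 3′ on that strand. Capitals mark CAGAC, the core of a SMAD site, and GGGCGG, a GC box, on either strand.
Itga3: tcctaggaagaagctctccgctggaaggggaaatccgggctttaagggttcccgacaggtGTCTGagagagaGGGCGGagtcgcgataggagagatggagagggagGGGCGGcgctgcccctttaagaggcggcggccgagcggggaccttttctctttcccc
Itgb7: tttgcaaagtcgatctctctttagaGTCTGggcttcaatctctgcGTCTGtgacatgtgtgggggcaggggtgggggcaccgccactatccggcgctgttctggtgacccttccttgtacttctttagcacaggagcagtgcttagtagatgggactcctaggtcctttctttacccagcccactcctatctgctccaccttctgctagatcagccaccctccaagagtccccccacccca
Lama5: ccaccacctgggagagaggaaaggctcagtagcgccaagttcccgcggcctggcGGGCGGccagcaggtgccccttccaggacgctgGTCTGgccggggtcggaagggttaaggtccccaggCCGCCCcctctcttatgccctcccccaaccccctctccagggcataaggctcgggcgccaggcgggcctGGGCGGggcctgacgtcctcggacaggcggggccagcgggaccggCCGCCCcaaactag
Each motif was searched on both strands in the whole windows of the 13 of the 22 tested genes with an entry. CAGAC was in 9 of them (69.2%), against 49.7% of 27025 windows of all genes, and GGGCGG in 7 (53.8%), against 35.9%. TGANTCA, the AP-1 site, was in 0 of 13 and in 7.9% of all windows, and ACGTG, the core of a hypoxia response element, in 0 of 13 and 19.7%. These are matches of letters and not measured binding sites.

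Among the laminin-binding α subunits, Itga3 rose, whereas Itga6 and Itga7 fell. Itga3 (ENSMUSG00000001507, chromosome 11, 95044474 to 95076801), whose product pairs with the β subunit of Itgb1 as a main epithelial laminin receptor, had the highest mean level per transcript length of all members, 247.5 FPKM (a fragment count scaled by transcript length and library size). Its expression was 894 and 931 CPM in shCtrl and 1224 and 1221 CPM in shUSP9X. Both shUSP9X libraries lay above both shCtrl libraries, at 912.5 ± 26.6 and 1222 ± 2.27 CPM (mean ± SD, n = 2 libraries each), and the log2 fold change was 0.42 (SE 0.03, adjusted p = 6.27e-12, edgeR).

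Itga6 (chromosome 2, 71745616 to 71858416) encodes the laminin receptor subunit that joins either Itgb1 or, in hemidesmosomes, Itgb4. It measured 285 and 300 CPM in shCtrl and 277 and 265 CPM in shUSP9X, a log2 fold change of -0.11 (SE 0.04, adjusted p = 0.0186). The groups did not overlap, but the gap between them was smaller than the distance between the 2 libraries of either group, and the call was lost in 7 of the 16 alternatives, namely DESeq2, upper quartile scaling, the 3 fits on FPKM and the fits without the second library of either group. Itga7 (ENSMUSG00000025348, chromosome 10, 128933818 to 128958282), best known as the laminin receptor subunit of muscle, was far less abundant. Its 166 and 188 counts in shCtrl and its 117 and 104 counts in shUSP9X corresponded to 9.57 and 11.9 against 5.92 and 6.17 CPM. Both shUSP9X libraries were the lower ones, and the log2 fold change was -0.82 (SE 0.16, adjusted p = 8.72e-05).

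The RGD-binding α subunits were lower by small amounts. Itga5 (chromosome 15, 103344286 to 103366763), the α subunit of the classical fibronectin receptor, was at 152 and 160 CPM in shCtrl and 138 and 137 CPM in shUSP9X. The shUSP9X values were the lower ones in both libraries, with a log2 fold change of -0.18 (SE 0.05, adjusted p = 0.00113), and of -0.32 once the GC and length trend was removed. Itgav (chromosome 2, 83724397 to 83806916), which pairs with the products of Itgb1, Itgb3, Itgb5, Itgb6 and Itgb8, was at 262 and 281 CPM in shCtrl and 219 and 236 CPM in shUSP9X. The groups did not overlap and the log2 fold change was -0.26 (SE 0.04, adjusted p = 1.38e-05), but the direction depended on the joint treatment of GC content and transcript length. With each library's trend on GC content and transcript length removed, the log2 fold change of Itgav was 0.46 (adjusted p = 2.41e-09, edgeR). In the alternatives that left this trend in, it was -0.31 to -0.2. The library kit named in the labels does not mark strand, and 5.90% of the exon bases of Itgav overlap a transcript on the opposite strand, from which its reads cannot be told apart.

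The collagen-binding α subunits were near the limit of detection. Itga10 had between 19 and 33.8 counts and Itga11 between 11 and 15 in a library. Both had lower CPM in each shUSP9X library than in either shCtrl library, with log2 fold changes of -0.72 and -0.41 that did not pass the threshold (adjusted p = 0.0935 and 0.48). Of the exon bases of Itga10, 33.5% overlap those of Gm42957 on the same strand, so its counts may be split between these genes. Itga1 had 0 counts in all 4 libraries, and Itga2 stayed at or under 3.

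Of the β subunits, the abundant ones fell slightly, Itgb8 fell 4.10-fold, and the leukocyte β subunits Itgb2 and Itgb7 rose. Itgb1 (chromosome 8, 128685654 to 128733200), the common partner of most α subunits, was at 554 and 565 CPM in shCtrl and 472 and 460 CPM in shUSP9X. Its groups were well separated, with a log2 fold change of -0.26 (SE 0.03, adjusted p = 2.16e-07), but once the GC and length trend was removed it was 0.02 (adjusted p = 0.566; 7.32e-12 to 0.582 over the 16 alternatives). Itgb3 (chromosome 11, 104608000 to 104670476), which with Itgav forms the vitronectin receptor, was at 102 CPM in both shCtrl libraries and at 81.2 and 78.1 CPM in shUSP9X. This fall, a log2 fold change of -0.35 (SE 0.05, adjusted p = 1.87e-06), was of the same size, -0.33, with the trend removed. Itgb5 (chromosome 16, 33829665 to 33949338), another partner of Itgav, was at 158 and 169 CPM in shCtrl and 148 and 142 CPM in shUSP9X. The shUSP9X libraries were again lower, with a log2 fold change of -0.17 (SE 0.05, adjusted p = 0.00257), and of -0.42 once the GC and length trend was removed.

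Itgb8 showed the largest fall among the members tested as long as the GC and length trend was left in. Its product pairs with that of Itgav, and this receptor is known for releasing TGF-β from its latent complex. The gene (ENSMUSG00000025321, chromosome 12, 119158022 to 119238802) had 216 and 168 counts in shCtrl, against 56 and 47 in shUSP9X, or 12.5 and 10.6 against 2.83 and 2.79 CPM. Both shUSP9X libraries were far below both shCtrl libraries, at 11.54 ± 1.295 and 2.81 ± 0.0308 CPM (mean ± SD, n = 2), so the level was 4.10-fold lower, a log2 fold change of -2.04 (SE 0.19, adjusted p = 3.69e-10). Its transcript has a GC content of 40.4%, in the lowest of 10 equal GC bins of all genes, a bin whose own median log2 fold change was -0.88. With the trend removed, Itgb8 had a log2 fold change of -0.74 and still passed the threshold (adjusted p = 0.00142, edgeR; 3.3e-27 to 0.00173 over 14 alternatives), but Lama4 (-1.59), Itga7 (-0.99) and Itga10 (-0.80) then lay lower. The gene was measured at a low level per length, with 1.49 and 1.28 FPKM in shCtrl and 0.334 and 0.329 FPKM in shUSP9X. Itgb6, whose product shares with that of Itgb8 the activation of latent TGF-β, had no more than 3 counts in any library.

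The subunits encoded by Itgb2 and Itgb7 are found mainly on leukocytes, where they pair with αL, αM, αX and αD and with α4 and αE, respectively. Itgb7 (ENSMUSG00000001281, chromosome 15, 102215995 to 102231944) had 20 and 25 counts in shCtrl, against 101 and 87 in shUSP9X, or 1.15 and 1.58 against 5.11 and 5.16 CPM. The shUSP9X libraries differed little on the count scale and lay well above shCtrl, with a 3.76-fold difference (log2 fold change 1.91, SE 0.28, adjusted p = 1.51e-06). On the FPKM scale they lay further apart, at 4.93 and 1.91 FPKM, both above the 0.433 and 0.597 FPKM of shCtrl. Itgb2 (ENSMUSG00000000290, chromosome 10, 77530252 to 77565708) had 6 and 7 counts in shCtrl, against 61 and 41 in shUSP9X, a 6.95-fold difference (log2 fold change 2.80, SE 0.44, adjusted p = 2.95e-06). Both shUSP9X libraries were higher, but the shCtrl counts were close to the floor of 3. Itgb2 passed the filter on low counts through the shUSP9X libraries alone, and where every library had to hold at least 10 counts it was not tested and 3 members, not 4, were higher. In FPKM the groups of Itgb2 were closer, at 0.158 and 0.446 in shCtrl and 1.03 and 0.811 in shUSP9X, as the ratio of FPKM to CPM varied 3.02-fold between libraries for this gene. Its log2 fold change was 0.57 on log2(FPKM + 1), where the pseudocount also narrows the difference of such low genes.

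The α partners of these β subunits were counted as well. Itgam, the αM gene outside the 36, had 0 and 0 counts in shCtrl, against 72 and 75 in shUSP9X, whereas Itgal reached at most 3, Itgax at most 3 and Itgad 0. Of the partners of Itgb7, Itga4 had 0, 9, 16 and 8 counts in the 4 libraries and overlapped between the groups, and Itgae had no more than 1. Among 14 leukocyte markers, 9 exceeded 3 counts in some library, and 5 (Ptprc, Csf1r, Adgre1, Itgam and Prg2) exceeded it in both shUSP9X libraries and in neither shCtrl library. The share of all genes that met this rule was not computed. Cd68, on the same list, had 74 and 68 counts in shCtrl, against 118 and 85 in shUSP9X (log2 fold change 0.37, adjusted p = 0.125, edgeR). Fcgr3 had 16 and 19 against 21 and 32 (0.46, adjusted p = 0.341, edgeR), and its groups overlapped. Ptprc, the pan-leukocyte CD45 gene, had 0 and 0 counts against 29 and 18, and Adgre1, the macrophage marker F4/80, had 0 and 0 against 58 and 59. The summed level of the 14 markers was 11.2 and 11.1 CPM in shCtrl and 26.9 and 27.2 CPM in shUSP9X, and the most abundant was Cd14. The T cell and natural killer cell markers Cd3e and Nkg7 were at 0 in every library, and Lyz2, a marker of macrophages and neutrophils, had 0, 0, 0 and 2 counts. In RNA from bulk cells, more cells of a type and more RNA per cell cannot be told apart, and the part of such cells in the rise of Itgb2 and Itgb7 was not tested.

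Itgb4, the hemidesmosomal partner of Itga6, was not called. It had 140 and 138 counts in shCtrl, against 183 and 156 in shUSP9X, which after scaling were 8.07 and 8.73 against 9.26 and 9.26 CPM. The groups did not overlap, but the log2 fold change of 0.14 (SE 0.15, adjusted p = 0.419) lay within its error.

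**Figure D2:**
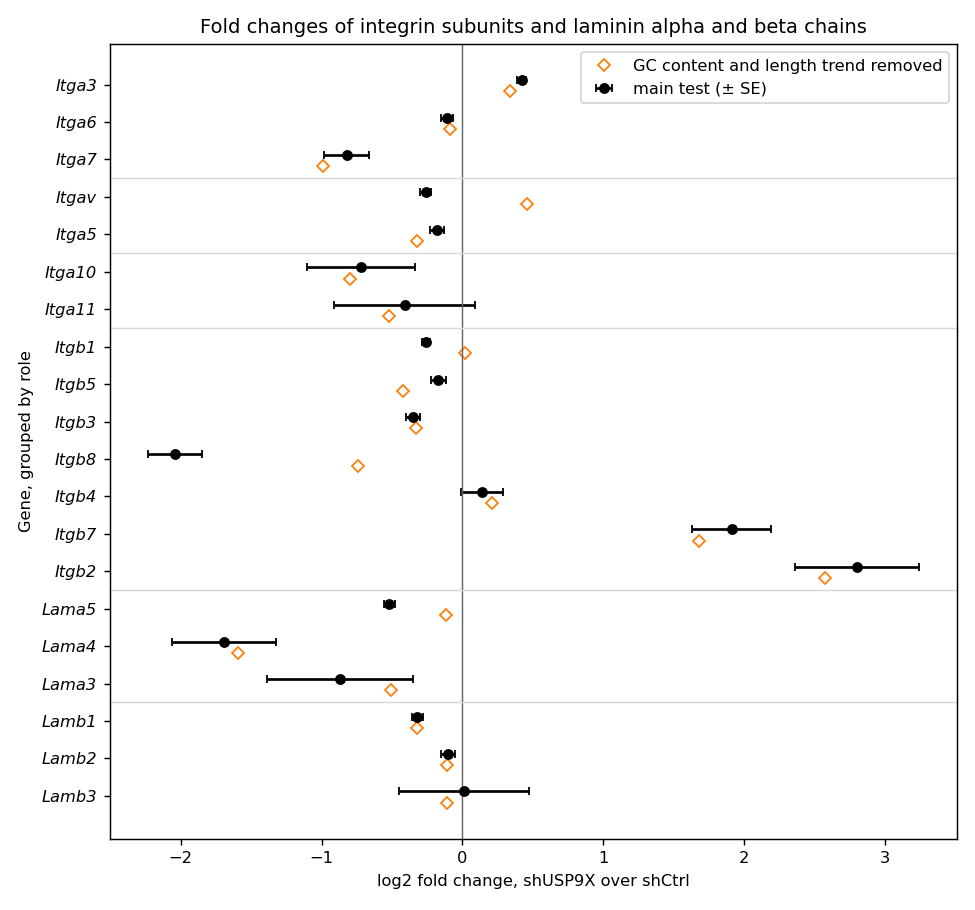
Log2 fold change of 20 of the 22 genes, the integrin subunits and laminin α and β chains (shUSP9X over shCtrl, main test in black with its SE as the error bar), with the value after removal of each library's trend on GC content and transcript length as orange diamonds. Itgav, Itgb1, Itgb8, Lama3 and Lama5 are among those that move towards or past 0, while Itgb7, Itgb2 and Lama4 stay near their first values.

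Of the laminin α chains, Lama5 and Lama4 fell. Lama5 (ENSMUSG00000015647, chromosome 2, 180176373 to 180225859), the α chain of most epithelial basement membranes in the adult, had 10920 and 10868 counts in shCtrl, against 8975 and 7851 in shUSP9X, or 630 and 687 against 454 and 466 CPM. Both shUSP9X libraries were lower, at 460.0 ± 8.43 against 658.5 ± 40.7 CPM (mean ± SD, n = 2), with a log2 fold change of -0.52 (SE 0.04, adjusted p = 5.09e-12). Once the GC and length trend was removed the log2 fold change was -0.12. Lama4 (ENSMUSG00000019846, chromosome 10, 38965515 to 39110188), a chain typical of vessels and mesenchymal cells, had 61 and 37 counts in shCtrl, against 15 and 18 in shUSP9X. That is 3.52 and 2.34 against 0.759 and 1.07 CPM, with shUSP9X the lower group in spite of the spread within shCtrl, and a log2 fold change of -1.69 (SE 0.37, adjusted p = 2.46e-04). The log2 fold change of Lama4 was -0.37 on log2(FPKM + 1), where the pseudocount narrows the difference of so low a gene. Its FPKM values were 0.585 and 0.392 in shCtrl and 0.124 and 0.175 in shUSP9X. Some markers of mesenchymal and endothelial cells were lower as well. Others did not pass and overlapped between the groups, namely Acta2 of the fibroblast list (log2 fold change -0.25, adjusted p = 0.684) and Pecam1 of the endothelial list (0.04, adjusted p = 0.952). Of 6 fibroblast markers, 3 exceeded 3 counts in some library, with a summed level of 184.5 and 181.5 CPM in shCtrl and 126 and 124 CPM in shUSP9X, while Pdgfrb, Thy1 and Lum had 0 counts in every library. Dcn, the matrix proteoglycan decorin and the most abundant, had 2919 and 2634 counts in shCtrl, against 2434 and 2032 in shUSP9X (log2 fold change -0.46, and -0.07 with the GC and length trend removed), and Pdgfra, a growth factor receptor of mesenchymal cells, had 272 and 215 against 34 and 39 (-2.87, adjusted p = 6.64e-13). Of 5 endothelial markers, 2 exceeded 3 counts, with a summed level of 10.4 and 11.7 CPM in shCtrl and 6.476 and 7.004 CPM in shUSP9X, and Cdh5 and Kdr had 0 counts. Tek, the most abundant of them, had 172 and 165 counts in shCtrl, against 109 and 105 in shUSP9X (-0.80, adjusted p = 1.20e-04). The part of such cells in the fall of Lama4 was not tested. Lama3, the α chain of epithelial anchoring laminin, had 15 and 15 counts in shCtrl, against 9 and 9 in shUSP9X, and did not pass (log2 fold change -0.87, SE 0.52, adjusted p = 0.144). Lama1 and Lama2 did not exceed 3 counts.

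Of the β chains Lamb1 passed the threshold, and Lamb2 did so only under some alternatives. Lamb1 (chromosome 12, 31265234 to 31329644), the common β chain of embryonic and epithelial laminins, was at 242 and 229 CPM in shCtrl and 182 and 194 CPM in shUSP9X. Both shUSP9X libraries were lower, with a log2 fold change of -0.32 (SE 0.04, adjusted p = 4.38e-07). Lamb2 (chromosome 9, 108479736 to 108490530), a chain of neuromuscular and glomerular basement membranes, was at 157 and 166 CPM in shCtrl and 148 and 152 CPM in shUSP9X, a log2 fold change of -0.10 (SE 0.05, adjusted p = 0.0515). The groups did not overlap, and the value lay just outside the threshold. Lamb2 passed it in 5 of the 16 alternatives, among them the removal of the GC and length trend (log2 fold change -0.11, adjusted p = 0.0221, edgeR) and the fit without the first shCtrl library (-0.13, adjusted p = 0.0126), with adjusted p from 0.0126 to 0.357 over all 16. Lamb3 had 18 and 20 counts in shCtrl, against 34 and 9 in shUSP9X. The shUSP9X libraries bracketed those of shCtrl, with a log2 fold change of 0.01 (SE 0.46, adjusted p = 0.983), and it was 0.59 without the second shUSP9X library and -1.09 without the first.

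Lamc1 (chromosome 1, 153218922 to 153332786), the γ chain of most laminins, was at 470 and 486 CPM in shCtrl and 465 and 471 CPM in shUSP9X. These ranges overlapped, with a log2 fold change of -0.03 (SE 0.04, adjusted p = 0.465). Once the GC and length trend was removed, Lamc1 was higher in shUSP9X and passed the threshold, with a log2 fold change of 0.11 (adjusted p = 0.00271, edgeR; 0.00145 to 0.98 over the 16 alternatives). Lamc3 had at most 6 counts.

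On the FPKM scale, which allows levels of different genes to be set side by side, 1 or 2 genes made up most of each class described. Itga3 made up 56.9% of the summed FPKM of the 17 α subunits in shCtrl and 67.9% in shUSP9X (means of 2 libraries), while Itga6 went from 18.8% to 14.9%, Itgav from 13.5% to 9.42% and Itga5 from 9.82% to 7.36%. The GC and length trend was left in these shares. With it removed, the log2 fold change of Itgav was 0.46, above the 0.34 of Itga3, and Itga6 and Itga5 were at -0.09 and -0.32. The direction of the Itgav share therefore depends on that trend, and shares with the trend removed were not computed. In each shUSP9X library the share of Itga3 (68.1% and 67.6%) was above that in each shCtrl library (56.9% and 57.0%). Of the β subunits, Itgb1 made up 66.9% and 64.8%, Itgb5 23.5% and 24.5%, and Itgb3 8.01% and 7.29%, so their order did not change. With the trend removed, their log2 fold changes were 0.02, -0.42 and -0.33, so the lower share of Itgb1 and the higher share of Itgb5 also depend on it. The share of Itgb8 went from 0.627% to 0.177% and that of Itgb7 from 0.231% to 1.81%. The Itgb7 share differed between the shUSP9X libraries, at 2.58% and 1.04%, although its CPM there were 5.11 and 5.16. Lama5 was nearly the sole α chain at 99.0% and 99.4%. Lamb1 and Lamb2 were close to each other, and their levels overlapped in shCtrl at 42.4 and 40.3 against 41.0 and 41.6 FPKM. These shares are descriptions, with no test of their own, and the levels of the genes within a class are not independent of each other.

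**Figure D3:**
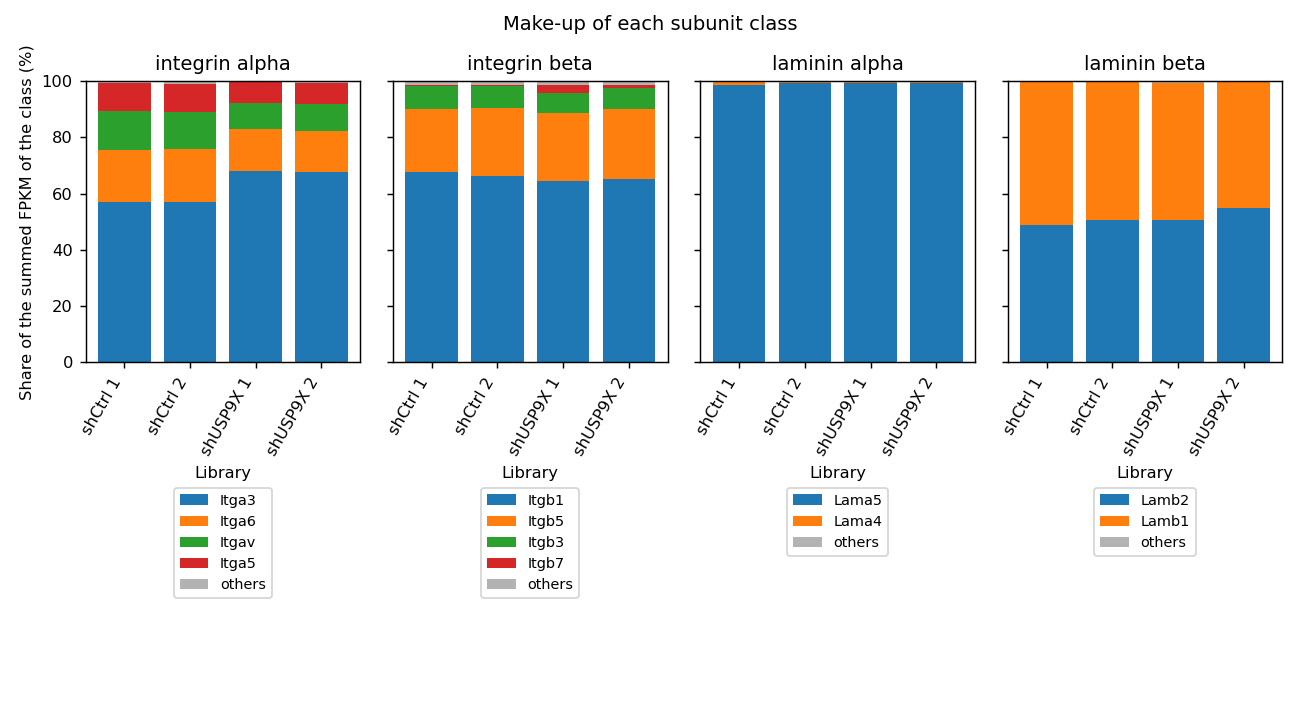
Share of each gene in the summed FPKM of its subunit class (%, linear axis from 0 to 100), for integrin α and β subunits and laminin α and β chains, in each of the 4 libraries. The Itga3 share of the α subunits is larger in both shUSP9X libraries, and Lama5 fills almost the whole laminin α class in all libraries.

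The remaining members were not tested. Itga1, Itga8, Itga9 and Itgad had 0 counts in all 4 libraries, which in a library allows up to 3 counts. A further 7 genes, Itga2, Itgb6, Itgae, Itgal, Itgax, Lama1 and Lama2, never exceeded 3 counts, so 11 of the 36 were at or under the floor. Itga2b, the platelet α subunit, had 4, 10, 9 and 9 counts, and with Itga4 and Lamc3 it was above the floor but below the filter. These 14 genes were left out of the test by the filter.

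The genes that work with integrins and laminins were followed through 5 lists. Of 34 integrin adaptors and kinases tested out of 40, 9 were lower and 14 higher by the same rule on adjusted p, by which 33.6% of all genes tested were lower and 33.7% higher, with a median log2 fold change of 0.10. With the GC and length trend removed, 6 were lower and 14 higher, beside 27.9% and 35.2% of all genes tested. Tns4, a tensin that binds β tails, rose from 18.7 and 18.2 CPM to 61.4 and 60.5 CPM (log2 fold change 1.72, adjusted p = 3.03e-16). The recycling and signalling pair Git1 and Arhgef7, which act as a complex at adhesions, also rose, by 0.55 and 0.48 on the log2 scale (0.36 and 0.44 once the GC and length trend was removed). Crk, an adaptor that binds phosphorylated paxillin and Cas, fell from 295 and 299.6 CPM to 140 and 138 CPM (log2 fold change -1.10, and -0.65 with the trend removed). Lims1, encoding the PINCH protein of the ILK complex, and Rap1a, a GTPase that drives integrin activation, fell at -0.83 and -0.60, but once the GC and length trend was removed their log2 fold changes were 0.09 and 0.51.

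More integrin ligands, other than laminins and fibrillar collagens, fell than rose. Of 17 tested out of 33, 9 were lower and 4 higher, beside 33.6% and 33.7% of all genes tested, and 7 and 2 at the study's cutoff, beside 18.7% and 10.8%. Their median log2 fold change was -0.43. With the trend removed, 9 were lower and 3 higher, beside 27.9% and 35.2% of all genes, with a median of -0.50. The 9 lower stayed 9 with any 1 library left out, but those higher were 8 without the first shCtrl library, 7 without the second shCtrl or the first shUSP9X library, and 8 with no filter beyond 1 count. Fn1, fibronectin, the ligand of the Itga5 and Itgb1 receptor, fell from 1547 and 1583 CPM to 521 and 549 CPM (log2 fold change -1.55, SE 0.03, adjusted p = 2.75e-23). Spp1, osteopontin, an RGD ligand of αv integrins, fell from 2441 and 2325 CPM to 1352 and 1375 CPM, and Thbs1, thrombospondin, from 75.2 and 78.2 CPM to 36.2 and 36.2 CPM. The log2 fold change of Spp1 was -0.81, and -0.50 with the GC and length trend removed. The ligands that rose most were Icam1, which binds β2 integrins on leukocytes (log2 fold change 1.05), and Ltbp1 and Tgfb1, parts of the latent TGF-β complex (0.69 and 0.44, with Tgfb1 at 0.26 once the trend was removed). Vtn, Fga, Fgb and Fgg, with 13 to 34 counts in the second shUSP9X library only, were left out of the main test by the filter. Every fit with more ligands higher than in the main test held that library. The part of these genes in the larger numbers was not tested.

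More basement membrane partners and other laminin receptors fell than rose. Of 19 tested out of 30, 12 were lower and 1 higher, with a median log2 fold change of -0.33, and 8 were lower at the study's cutoff, where the shares of all genes were those given for the ligands. Utrn, utrophin, which links dystroglycan to actin, fell from 179.7 and 177 CPM to 79.1 and 85.4 CPM (log2 fold change -1.12), and the basement membrane collagens Col4a6 and Col4a5 fell at -0.91 and -0.90. The gene that rose was Rpsa, from 1584 and 1599.9 CPM to 2391 and 2380.3 CPM (log2 fold change 0.58). It encodes a small ribosomal subunit protein that is also described as a laminin receptor. Once the GC and length trend was removed, the log2 fold change of Utrn was -0.51 and that of Rpsa 0.35, and 9 genes of this list were lower and 3 higher, beside 27.9% and 35.2% of all genes tested, with a median of -0.17. At the study's cutoff 4 were then lower, beside 12.8% of all genes.

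Of the enzymes that build the laminin-binding glycan of dystroglycan, 13 of 16 were tested. By adjusted p 3 were lower and 5 higher, beside 33.6% and 33.7% of all genes tested, with a median log2 fold change of 0.11. With the GC and length trend removed, 4 were lower and 4 higher, beside 27.9% and 35.2% of all genes, with a median of -0.00. Pomgnt1, which extends the O-mannose core, rose from 45.9 and 47.1 CPM to 93.1 and 86.2 CPM (log2 fold change 0.95), and Pomt2, an O-mannosyltransferase, rose by 0.39 on the log2 scale.

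Among membrane partners of integrins, all 15 were tested, with 5 lower, 8 higher and a median log2 fold change of 0.12, beside 33.6% and 33.7% of all genes tested. With the GC and length trend removed, 6 were lower and 6 higher, beside 27.9% and 35.2% of all genes, with a median of -0.02. The number lower was 2 without the first shUSP9X library and 3 without the second. Plaur, the urokinase receptor, which associates with integrins at the cell surface, rose from 62.9 and 64.6 CPM to 142 and 141 CPM (log2 fold change 1.15, SE 0.05, adjusted p = 1.38e-16). Lgals3, a galectin, and Tspan9, a tetraspanin, rose by 0.76 and 0.53, and by 0.37 and 0.32 once the GC and length trend was removed. Ndrg1, a hypoxia-responsive gene counted in this list, fell from 138 and 141 CPM to 54.1 and 50.7 CPM (log2 fold change -1.41). The study measured it as a hypoxia target gene, and its place among membrane partners of integrins was not tested. The tetraspanin Cd81 and the galectin Lgals8 fell at -0.28 and -0.22. With the trend removed Cd81 was at -0.60. Lgals8 did not pass the threshold without the first shUSP9X library (adjusted p = 0.0594) or once the GC and length trend was removed (adjusted p = 0.199, edgeR; 6.07e-04 to 0.202 over the 16 alternatives).

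**Figure D4:**
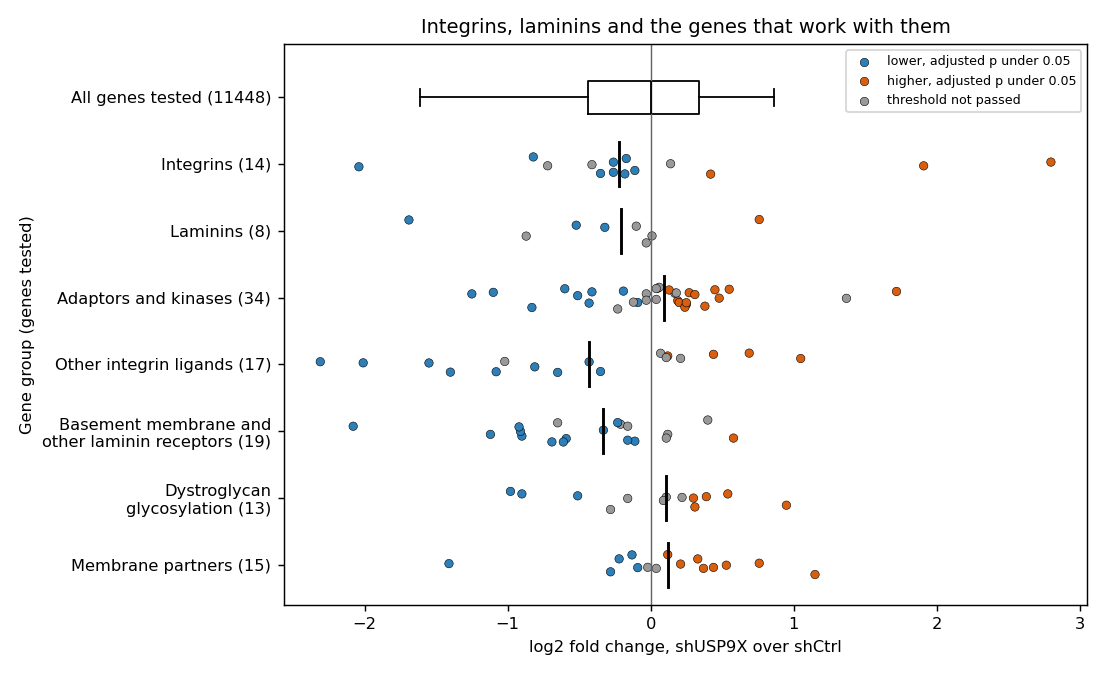
Log2 fold changes (shUSP9X over shCtrl) of integrins, laminins and the 5 lists, with 1 point per gene tested, blue where lower and orange where higher (adjusted p under 0.05), grey for neither, and a bar at each median. The box for all 11448 genes spans the quartiles and its whiskers the 5th to 95th percentiles, around a median of -0.00, and the ligand and basement membrane lists have the lowest medians, -0.43 and -0.33.

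GC content moved with the fold changes of all genes tested. Across the genes tested, which are not independent replicates, log2 fold change and GC content had a Spearman's rho of 0.447. Among the 22 members tested, Itgb8 (40.4%), Itgav (43.5%) and Itgb1 (44.8%) had the lowest GC content, and the other 19 lay between 48.9% and 60%. When all genes were split into 10 bins of equal size by GC content, the bins of these 3 genes had medians of -0.88, -0.41 and -0.19, so Itgav and Itgb1 lay close to the median of genes of like GC content and Itgb8 lay below it. The bins of the other 19 had medians of 0.06 to 0.25, and some of these genes were lower, such as Itga7 at -0.82 and Itga5 at -0.18 in a bin with a median of 0.25 and Lama5 at -0.52 (-0.12 with the trend removed) in one of 0.18. With the trend removed, an adjusted p under 0.05 was reached by 10 members that were lower and 6 that were higher, beside 27.9% and 35.2% of all genes, with a median of -0.12, beside 0.03 for all genes. The correction also removes differences of any origin that run along GC content or length.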

How the data were processed

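The study's methods give GRCm38 as the genome and DESeq2 as the test, with genes taken at a fold change above 1.5 and a p-value under 0.05. The submitters' processing notes name fastp 0.18.0, Bowtie2 2.2.8, HISAT2, StringTie 1.3.1 and RSEM, and their settings are not given in the sources used here. The authors deposited an estimated count, not normalized, and an FPKM value per gene and library, without pooling. Because 6.395% to 6.69% of the counts in a library had decimals, they were rounded, although the test had been planned for whole-number counts. FPKM was not the count over a fixed length per gene.

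Rounded counts of all 22063 genes were filtered with filterByExpr and scaled by TMM. edgeR 4.0.16 in R 4.3.3 compared shUSP9X with shCtrl by its quasi-likelihood test, and p-values were adjusted over 11448 genes by the Benjamini-Hochberg method. Adjusted p-values are from this test unless another is named. The standard error is the log2 fold change over the root of F. The common biological coefficient of variation was 0.0352. An exact permutation test of 2 libraries against 2 cannot go below a two-sided p of 0.333 and was not used. The floor of detection was 3 counts per library and covers counting error only, since no molecular identifiers are described. Counts differed between the libraries of a group by more than sampling noise (chi-square per gene 3.35 in shCtrl and 2.23 in shUSP9X). Coordinates, GC content and transcript length are from GENCODE M21 (GRCm38), which held 21973 of the gene identifiers. Promoter windows are from RefSeq.

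The genes and lists were chosen with earlier results of these data known. Values in every library are given for members with a mean of at least 50 counts, or with a fold change above 2, no overlap and at least 10 counts in both libraries of a group. From each list up to 3 rises and 3 falls are named, the largest among genes whose groups do not overlap, whose mean log2 CPM reaches 4 and whose adjusted p is under 0.05. Some genes that these rules name are not reported here. Alternatives were DESeq2 1.42.0, its size factors, upper quartile scaling, library size only, other filters, limma-trend (limma 3.58.1) on log2(FPKM + 1) and log2(FPKM + 0.1), a replicate block, an offset that takes out a loess trend (span 0.3) fitted per library to GC content and length, both together, and each library left out. The procedures were tested on simulated data.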

Additional observations from a re-analysis of the deposited data

How the results depend on the processing

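Of the 335 refits of single members over the 16 alternatives, 306 kept direction and side of the threshold, and the counts of members lower or higher at an adjusted p under 0.05 stayed within 1.5 times in every alternative. At the study's cutoff the 3 members lower became 0 on log2(FPKM + 1) with a mean FPKM of at least 1, and 1 on log2(FPKM + 0.1) or on log2(FPKM + 1) with no filter. Of these members, Itgb8 and Lama4, at a mean of 0.859 and 0.319 FPKM, were not fitted where a mean FPKM of at least 1 was required. Ligands higher went from 4 to 8 with no filter beyond 1 count and from 3 to 8 with 1 library left out (8 without shCtrl 1, 7 without shCtrl 2 or shUSP9X 1, 3 without shUSP9X 2). Basement membrane genes higher went from 1 to 2 with upper quartile scaling, with no filter beyond 1 count or with the replicate block, to 3 with the GC content and length offset or the block with that offset, and from 1 to 2 with 1 library left out (2 without shCtrl 2 or shUSP9X 1). Membrane partners lower went from 5 to 3 in each fit on FPKM and from 2 to 5 with 1 library left out (2 without shUSP9X 1, 3 without shUSP9X 2). With the offset, alone or with the block, the log2 fold change turned to 0.46 for Itgav, 0.02 for Itgb1, 0.11 for Lamc1 (then past the threshold), 0.09 for Lims1 and 0.51 for Rap1a. Lamc1 was also at 0.00 with upper quartile scaling. Lamb3, not called in any fit, was -0.01 in DESeq2, -0.02 with library size only and on log2(FPKM + 1) with no filter, -0.08 with the block, -0.11 with the offset, -0.20 with both, and -1.09 to 0.59 with 1 library left out. Without the second shUSP9X library adaptors and kinases went to 7 lower and 13 higher and glycan enzymes to 6 higher. Why these values moved was not tested beyond the offset itself. Replicate numbers did not pair the libraries: deviations of same-numbered libraries had a correlation of -0.0247 over 10219 genes, and with the replicate block 11 members were lower and 4 higher, as without it. A fit with a lone library in a group assumes that it varies like the other group. The filter on low counts left 14 of the 36 members untested.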

Other observations

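Of 5 platelet markers, Pf4 and Gp9 had 0 counts, and the 5 summed to no more than 13 counts in a library. In the second shCtrl library, Tyrp1 and Dct, genes of melanin synthesis, had 113 and 31 counts and 0 in the other libraries. They were singled out after their values were seen.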
